A study of Mus musculus with 24 samples.

Results

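The platelet-derived growth factor (PDGF) system was examined as 6 genes, the receptors Pdgfra and Pdgfrb and the ligands Pdgfa, Pdgfb, Pdgfc and Pdgfd, which were chosen by name and were all present among the 14427 genes of the deposited count table. The measurements were RNA sequencing libraries from 8 lines of mouse cortical astrocytes on a C57BL/6 background, with 3 libraries per line. Pups of genotype Trp53 f/- were taken at postnatal day 1, and astrocytes of at least 3 pups were pooled into 1 male culture and 1 female culture, so that sex and culture cannot be told apart. In each culture, p53 R172H, p53 Y202C or p53 Y217C was overexpressed from a retrovirus that also carried eGFP, cells were sorted on eGFP, and the floxed Trp53 allele was then deleted with a lentiviral Cre followed by puromycin selection. The p53 KO line of each culture received the Cre virus and puromycin but neither the retrovirus nor the sort, so that the effect of the mutant protein and that of the vector and the sort cannot be told apart. All 8 lines were therefore without floxed Trp53, were grown with 10% serum and were labelled as passages 10 to 15. Each line was 1 transduced population, and its 3 libraries came from separate thaws and platings, so that the p-values measure the spread between platings of a line.

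PDGF ligands are dimers of A, B, C or D chains, and they signal through dimers of the receptor tyrosine kinases PDGFR-alpha and PDGFR-beta. The A and C chains act mainly through PDGFR-alpha, the D chain mainly through PDGFR-beta, and the B chain through both, while the C and D chains are secreted in a latent form that a protease must cut. In the brain, PDGFR-alpha is known as a marker of oligodendrocyte progenitors and as a gene amplified in gliomas, PDGFR-beta marks pericytes, and both receptors are found on fibroblasts.

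Total counts per library ranged from 52787288 to 136503809, and the 6 genes had between 37 and 63770 reads in a library, the fewest being those of Pdgfb. Levels below are counts per 1000000 reads (CPM) after scaling by trimmed mean of M values, and the test was edgeR's quasi-likelihood test over all genes with Benjamini-Hochberg adjustment at 0.05. Trp53, the targeted gene, had 46.5 to 53.7 CPM in the p53 KO libraries and 572 to 3870 CPM in the libraries of the mutant lines, which matched the labels, and these counts include reads of the transgene. Of the astrocyte markers, Vim and Gja1 were abundant in every line, whereas Gfap had a mean of 6.93 CPM in male p53 Y217C and at most 0.257 CPM in the other lines, and Aqp4 reached at most 8.06 CPM. These defining astrocyte genes were therefore near or below detection in most lines.

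The 250 bases before the RefSeq start are shown for Pdgfra and Pdgfd (build GRCm38.p6, 5′ to 3′ on the gene's strand). The direction of both turned between the cultures for p53 R172H and p53 Y202C. They were taken from the 4 members whose windows were read, Pdgfra, Pdgfa, Pdgfc and Pdgfd. No window of Pdgfrb or Pdgfb was read. Capitals mark a match to any of 6 motifs searched on both strands.
Pdgfra, chr5:75152001-75152250, plus strand: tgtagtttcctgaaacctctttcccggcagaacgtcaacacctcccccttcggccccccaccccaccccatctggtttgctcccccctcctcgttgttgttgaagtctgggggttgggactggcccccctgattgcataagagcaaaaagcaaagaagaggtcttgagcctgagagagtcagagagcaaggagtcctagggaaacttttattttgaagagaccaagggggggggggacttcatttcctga
Pdgfd, chr9:6168236-6168485, plus strand: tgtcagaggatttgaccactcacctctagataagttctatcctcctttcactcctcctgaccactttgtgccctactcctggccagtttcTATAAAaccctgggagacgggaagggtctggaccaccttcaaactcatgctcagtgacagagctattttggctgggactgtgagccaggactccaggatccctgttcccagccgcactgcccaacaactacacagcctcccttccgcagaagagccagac
The motifs were the TATA box (TATAAA), the CCAAT box (CCAAT), the GC box (GGGCGG), an AP-2 motif (GCCNNNGGC), an androgen receptor half-site (TGTTCT) and an AP-1 motif (TGANTCA), and of these only TATAAA can be read in capitals, once, in the Pdgfd window, where it began 160 bases before the start. That motif was present in 12.4% of all 32851 windows of the same length. The Pdgfra window held no match, whereas the shares of all windows with a match were 33.8% for CCAAT, 32.7% for GGGCGG, 13.7% for GCCNNNGGC, 16.1% for TGTTCT and 6.75% for TGANTCA. The GC content was 54.4% for Pdgfra and 53.6% for Pdgfd, beside a median of 52.4% over all windows. A match is a string of letters and was not tested for binding.

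Pdgfra, which encodes PDGFR-alpha (gene ENSMUSG00000029231, chr5:75152292-75198215 on the plus strand in GENCODE M21), moved in opposite directions in the 2 cultures. In the female culture, the p53 KO libraries had 2.17, 3.2 and 3.9 CPM. The female p53 R172H libraries had 175, 171 and 149 CPM, and the female p53 Y202C libraries had 139, 136 and 155 CPM. Both mutant lines lay far above the p53 KO with no overlap, with log2 fold changes of 5.74 ± 0.14 (SE, n = 3 per line, adjusted p = 1.59e-20) and 5.54 ± 0.14 (SE, n = 3, adjusted p = 5.17e-20), or 53.3-fold and 46.5-fold. The female p53 Y217C libraries, at 9.49, 8.16 and 7.59 CPM, were also all above the p53 KO, but by a log2 fold change of 1.45 ± 0.13 (SE, n = 3, adjusted p = 2.50e-09). In the male culture, the p53 KO libraries began at a higher level, with 19.5, 20.6 and 20.4 CPM. Male p53 R172H had 2.75, 3.43 and 3.32 CPM, male p53 Y202C had 7.49, 8.4 and 8.46 CPM, and male p53 Y217C had 2.77, 2.56 and 2.79 CPM. Every mutant library of the male culture was thus below every p53 KO library, and Pdgfra fell by 2.68 ± 0.13, 1.32 ± 0.12 and 2.90 ± 0.13 on the log2 scale (SE, n = 3, adjusted p = 6.32e-14, 4.67e-10 and 1.89e-15). Only 141 and 75 of 14427 genes had a larger absolute log2 fold change than Pdgfra in female p53 R172H and female p53 Y202C.

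**Figure D1:**
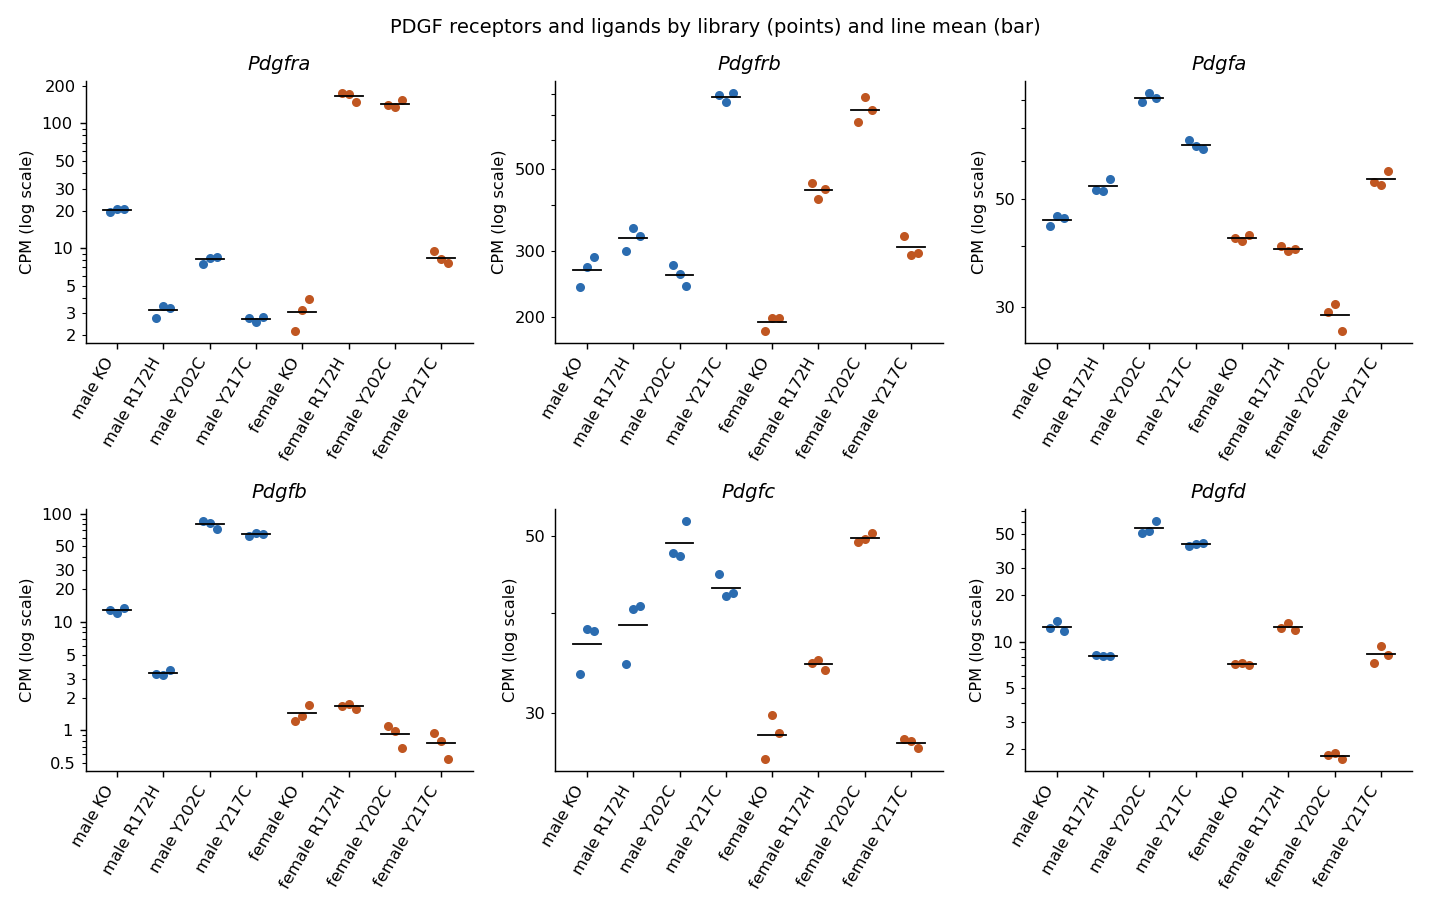
Each panel gives the CPM of 1 member (log axis) in the 24 libraries as points, with the mean of each line as a bar, male lines in blue and female lines in orange. Pdgfra stands at 136 to 175 CPM in female p53 R172H and female p53 Y202C and at 20.6 CPM or less in the other 6 lines, and Pdgfb stands at 62.6 to 86.2 CPM in male p53 Y202C and male p53 Y217C and at 13.5 CPM or less in the other 6 lines.

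In order of Pdgfra level, female p53 R172H (mean 165 CPM) and female p53 Y202C (144 CPM) came first and did not differ beyond their spread (adjusted p = 0.116). Male p53 KO followed at 20.2 CPM, apart from both neighbours. Female p53 Y217C (8.41 CPM) and male p53 Y202C (8.12 CPM) were not separated (adjusted p = 0.677). The lowest lines were male p53 R172H, female p53 KO and male p53 Y217C, at 3.17, 3.09 and 2.71 CPM, and neighbours among these were not separated (adjusted p = 0.892 and 0.251).

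Pdgfra is also a fibroblast gene, and so its level was set beside 11 genes of fibroblasts or meningeal cells, all 11 of which were measured. In female p53 R172H, 9 of the 11 passed the test as higher than in p53 KO and 1 as lower, where 34.4% of all genes were higher and 35.3% lower. Their summed level was 43900 to 51200 CPM against 24000 to 26000 CPM in the female p53 KO libraries. In female p53 Y202C, 9 were higher and 0 lower, beside 34.3% and 34.3% of all genes, with a sum of 35500 to 41700 CPM. In the male culture the sum did not follow Pdgfra line by line. Male p53 R172H had 31400 to 35200 CPM, overlapping the 27800 to 33400 CPM of male p53 KO, while Pdgfra was 6.4-fold lower. Male p53 Y202C had the lowest sum, 8860 to 10700 CPM, and male p53 Y217C had 17000 to 17600 CPM. By gene, 2 of the 11 were higher and 8 lower in male p53 Y202C (median log2 fold change -0.89). The numbers were 1 and 8 in male p53 Y217C (-1.11), 2 and 2 in male p53 R172H (-0.03) and 6 and 1 in female p53 Y217C (0.51). Of all genes, 37.6% and 35.4%, 34.9% and 35.6%, 20.2% and 20.5%, and 28% and 28.7% were higher and lower there. Within the list, the small proteoglycan gene Dcn had a mean of 105 CPM in female p53 R172H and 15.4 CPM in female p53 Y202C against 2.2 CPM in female p53 KO, and Postn, which encodes the matrix protein periostin, had 1960 and 981 CPM against 85.7 CPM. The proteoglycan gene Lum had 18.2 CPM in female p53 R172H and at most 0.675 CPM in the other lines. The part of such cells in the Pdgfra result was not tested, and in bulk libraries fewer cells of a type and less RNA per cell cannot be told apart.

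**Figure D2:**
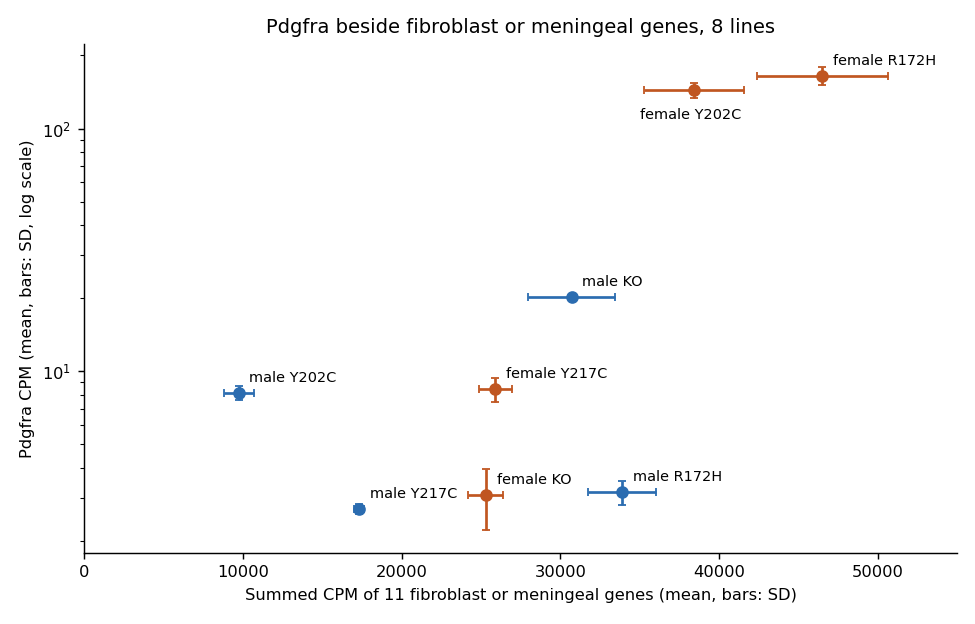
Points are the 8 lines, with the summed CPM of 11 fibroblast or meningeal genes on the horizontal axis and Pdgfra CPM on the vertical log axis (mean of 3 libraries, bars are the SD; male in blue, female in orange). The 2 lines with the highest Pdgfra, female p53 R172H and female p53 Y202C, also have the highest sums, whereas male p53 R172H has the next highest sum with Pdgfra at 3.17 CPM.

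Of 15 oligodendrocyte progenitor genes, 6 were measured. The defining genes Olig1, Olig2 and Sox10 were not found among the deposited counts, in which every gene exceeded 1 CPM in 3 or more libraries. Among the 6, the proteoglycan genes Cspg4 and Vcan had 54.9 to 313 and 105 to 403 CPM, Ptprz1 had 0.399 to 128 CPM, and the transcription factor genes Nkx2-2 and Sox8 reached 11 and 48.3 CPM, both in male p53 Y217C. The summed level of these 6 genes was lower in female p53 R172H (494 to 544 CPM) and female p53 Y202C (504 to 538 CPM) than in female p53 KO (677 to 700 CPM). It was also lower in male p53 Y202C (302 to 330 CPM) and male p53 Y217C (213 to 228 CPM) than in male p53 KO (659 to 701 CPM). Male p53 R172H had 813 to 859 CPM and female p53 Y217C 583 to 626 CPM. The sum was therefore lower in the 2 lines where Pdgfra rose most and in 2 of the 3 male lines where it fell. Cspg4 and Vcan made up most of it. By gene, 2 of the 6 were higher and 2 lower in female p53 R172H (median log2 fold change 0.77), against 0 and 4 in female p53 Y202C (-0.29). Of all genes, 34.4% were higher and 35.3% lower in female p53 R172H, and 34.3% and 34.3% in female p53 Y202C. Some markers of other cell types moved in the direction of Pdgfra. Of 11 microglial genes 2 were measured, and the others were likewise not found among the deposited counts. Both measured genes were higher in female p53 R172H and female p53 Y202C (medians 1.08 and 1.53). They were lower in male p53 Y202C (-1.49), where 35.4% of all genes were. Tmem119 had 44.6 CPM in female p53 KO and 107, 76.6 and 96.8 CPM in female p53 R172H, p53 Y202C and p53 Y217C. In the male culture it had 73 and 80.2 CPM in p53 KO and p53 R172H, and 20.5 and 16.4 CPM in p53 Y202C and p53 Y217C. Csf1r, the defining receptor gene of microglia, had at most 2.93 CPM. The astrocyte gene Slc1a3, a glutamate transporter, had 18.7 CPM in female p53 KO, 281 CPM in p53 R172H and 42.7 CPM in p53 Y202C. The neuronal gene Stmn2 had 10.8, 120 and 33.7 CPM in these lines. Other markers of these lists went the other way there. The astrocyte gene Nes had 428, 105 and 132 CPM. The neuronal genes Tubb3 and Map2 had 86.1, 23.8 and 43 CPM and 40.9, 8.95 and 3.01 CPM. Of 14 astrocyte genes, 6 were higher and 3 lower in female p53 R172H, and 6 and 2 in female p53 Y202C. Of 4 neuronal genes, these numbers were 1 and 2, and 2 and 2. In male p53 Y202C, where Pdgfra fell, Stmn2 had 55.8 CPM against 24 CPM in male p53 KO. Their part in the Pdgfra result was not tested.

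Pdgfrb, which encodes PDGFR-beta (ENSMUSG00000024620, chr18:61045150-61085061 on the plus strand), was the more abundant receptor gene in every line on the scale of CPM per kilobase of exon, and no mutant line had a significant fall. The female p53 KO libraries had 183, 198 and 198 CPM. Female p53 R172H had 458, 417 and 442 CPM, female p53 Y202C had 670, 783 and 722 CPM, and female p53 Y217C had 330, 294 and 298 CPM. All 9 mutant libraries of the female culture were above its p53 KO, with log2 fold changes of 1.19 ± 0.07, 1.91 ± 0.07 and 0.67 ± 0.07 (SE, n = 3, adjusted p = 6.04e-13, 1.82e-16 and 3.20e-08). In the male culture, the p53 KO libraries had 240, 272 and 290 CPM. Male p53 Y217C had 796, 760 and 804 CPM, a rise of 1.56 ± 0.07 on the log2 scale (SE, n = 3, adjusted p = 3.03e-15). Male p53 R172H, at 301, 348 and 330 CPM, was higher by 0.29 ± 0.07 (SE, n = 3, adjusted p = 0.00263), without overlap. Male p53 Y202C, at 276, 261 and 242 CPM, overlapped the p53 KO, with a log2 fold change of -0.04 ± 0.07 (SE, n = 3, adjusted p = 0.621), and its sign turned when 1 library was left out. The order ran from male p53 Y217C (786 CPM) and female p53 Y202C (725 CPM), which were not separated (adjusted p = 0.151), through female p53 R172H (439 CPM) to female p53 KO (193 CPM). Male p53 R172H and female p53 Y217C (adjusted p = 0.36) and male p53 KO and male p53 Y202C (adjusted p = 0.621) were neighbours that did not differ beyond their spread.

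The pericyte or vascular smooth muscle list, to which PDGFR-beta signalling is known to be central, had 8 of 13 genes measured. Kcnj8, Abcc9 and Vtn were not found among the deposited counts, in which every gene exceeded 1 CPM in 3 or more libraries. Its summed level was set mostly by the contractile genes Acta2 (2240 to 3520 CPM by line) and Tagln (760 to 1500 CPM). Against 3560 to 3820 CPM in male p53 KO it was 4910 to 5230 CPM in p53 R172H, 2910 to 3380 CPM in p53 Y202C and 4630 to 4830 CPM in p53 Y217C. Against 3620 to 3690 CPM in female p53 KO it was 3720 to 4350 CPM in p53 R172H, 3210 to 3690 CPM in p53 Y202C and 4070 to 4250 CPM in p53 Y217C. The order of these sums was not that of Pdgfrb, since male p53 R172H had the highest sum with a Pdgfrb log2 fold change of 0.29. The numbers of the 8 genes higher and lower were 3 and 2 in male p53 R172H, 2 and 4 in male p53 Y202C, 2 and 2 in male p53 Y217C, 4 and 3 in female p53 R172H and 3 and 3 in both female p53 Y202C and female p53 Y217C, with medians between -0.43 and 0.25. Of all genes, 40.7%, 73%, 70.5%, 69.7%, 68.6% and 56.7% passed in these lines in the same order. Notch3, a receptor of mural cells, had 67.5 CPM in female p53 Y202C and 12.6 CPM in female p53 KO, and Anpep had 35.7 and 8.43 CPM. Tagln had 809 and 1220 CPM, Des 0.714 and 9.32 CPM and Rgs5 0.943 and 3.02 CPM there. Foxs1 reached 13 CPM in male p53 Y202C. Their part in the Pdgfrb result was not tested.

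The ratio of Pdgfra to Pdgfrb, both per kilobase of exon, was below 1 in every library. It was 0.205 ± 0.0202 (SD, n = 3) in female p53 R172H and 0.109 ± 0.012 in female p53 Y202C, against 0.00871 ± 0.00216 in female p53 KO. It was 0.0414 ± 0.00295 in male p53 KO and fell to 0.0172 ± 0.00218 in male p53 Y202C, 0.0053 ± 0.000272 in male p53 R172H and 0.00188 ± 3.21e-05 in male p53 Y217C. Libraries of the male p53 KO did not overlap with those of any male mutant line, and no test was run on the ratio.

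Pdgfb, which encodes the B chain that activates both receptors (ENSMUSG00000000489, chr15:79995874-80014977 on the minus strand), was expressed mostly in the male culture. The male p53 KO libraries had 12.9, 12.2 and 13.5 CPM. Male p53 Y202C had 86.2, 81.8 and 72.1 CPM, and male p53 Y217C had 62.6, 65.9 and 64.3 CPM. These were rises of 2.64 ± 0.10 and 2.32 ± 0.10 on the log2 scale (SE, n = 3, adjusted p = 7.03e-17 and 5.93e-16), or 6.22-fold and 5-fold. Male p53 R172H went the other way, with 3.34, 3.25 and 3.57 CPM, and fell by 1.92 ± 0.11 (SE, n = 3, adjusted p = 1.38e-12). In the female culture no library exceeded 1.74 CPM. Female p53 KO had 1.22, 1.37 and 1.7 CPM, and female p53 R172H overlapped it with 1.66, 1.74 and 1.58 CPM (log2 fold change 0.21 ± 0.14, SE, n = 3, adjusted p = 0.183). Without female p53 KO replicate 3 the value for female p53 R172H was 0.36 (adjusted p = 0.0374). Female p53 Y202C had 1.1, 0.989 and 0.691 CPM and female p53 Y217C had 0.951, 0.8 and 0.547 CPM, which were falls of 0.66 ± 0.16 and 0.88 ± 0.16 (SE, n = 3, adjusted p = 0.00115 and 7.48e-05). In order, the 4 male lines stood above the 4 female lines, each male line was apart from its neighbours, and female p53 R172H and female p53 KO (adjusted p = 0.183) and female p53 Y202C and female p53 Y217C (adjusted p = 0.314) were not separated.

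Pdgfd, which encodes the D chain (ENSMUSG00000032006, chr9:6168584-6378850 on the plus strand; its upstream window with the TATAAA match is given above), moved in opposite directions in the male and the female p53 Y202C line. The male p53 KO libraries had 12.2, 13.7 and 11.8 CPM, male p53 Y202C had 50.6, 52.2 and 60.9 CPM, and male p53 Y217C had 41.8, 43 and 43.8 CPM. The rises were 2.12 ± 0.08 and 1.77 ± 0.08 on the log2 scale (SE, n = 3, adjusted p = 6.82e-17 and 1.60e-15). Male p53 R172H had 8.17, 8.06 and 8.02 CPM and fell by 0.63 ± 0.08 (SE, n = 3, adjusted p = 1.60e-06). In the female culture, p53 KO had 7.21, 7.25 and 7.03 CPM. Female p53 Y202C had 1.83, 1.9 and 1.74 CPM, a fall by 1.98 ± 0.10 (SE, n = 3, adjusted p = 3.36e-14), below every library of the other lines. Female p53 R172H had 12.2, 13.3 and 11.9 CPM and rose by 0.80 ± 0.08 (SE, n = 3, adjusted p = 8.22e-09). Female p53 Y217C had 7.26, 9.39 and 8.23 CPM, with a log2 fold change of 0.21 ± 0.09 (SE, n = 3, adjusted p = 0.0383), which did not pass without female p53 Y217C replicate 2 (0.11, adjusted p = 0.294), nor without replicate 3 of that line or any 1 library of female p53 KO. In order, male p53 KO and female p53 R172H (adjusted p = 0.922), female p53 Y217C and male p53 R172H (adjusted p = 0.759), and male p53 R172H and female p53 KO (adjusted p = 0.0954) were neighbours that were not separated.

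Pdgfa, which encodes the A chain (ENSMUSG00000025856, chr5:138976014-138997370 on the minus strand), varied over a narrower range, from 28.9 to 80.9 CPM by line. Male p53 KO had 44, 46.1 and 45.8 CPM. Male p53 Y202C had 79.1, 82.7 and 80.9 CPM, and male p53 Y217C had 66.3, 64.4 and 63.4 CPM. The log2 fold changes were 0.84 ± 0.05 and 0.51 ± 0.05 (SE, n = 3, adjusted p = 9.24e-14 and 8.08e-10), and male p53 R172H, at 52.3, 52.1 and 55.1 CPM, rose by 0.23 ± 0.05 (SE, n = 3, adjusted p = 0.000384). Female p53 KO had 41.6, 41.1 and 42.3 CPM. Female p53 Y217C rose to 54.3, 53.5 and 57.2 CPM (0.40 ± 0.05, SE, n = 3, adjusted p = 1.46e-07), whereas female p53 Y202C fell to 29.3, 30.5 and 26.8 CPM (-0.53 ± 0.05, SE, n = 3, adjusted p = 1.00e-09). Female p53 R172H had 40.1, 39.2 and 39.6 CPM and did not pass (-0.07 ± 0.05, SE, n = 3, adjusted p = 0.181). In order, female p53 Y217C and male p53 R172H (adjusted p = 0.422), male and female p53 KO (adjusted p = 0.0539) and female p53 KO and female p53 R172H (adjusted p = 0.181) were not separated. The antisense gene 6330403L08Rik overlaps 26.1% of the exon bases of Pdgfa and is in the table; whether counting used the strand was not given in the sources used here, so that reads of both genes may not be fully told apart.

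Pdgfc, which encodes the C chain, known as a ligand of PDGFR-alpha (ENSMUSG00000028019, chr3:81036416-81214040 on the plus strand), moved least. Female p53 KO had 26.3, 29.8 and 28.3 CPM, and female p53 Y202C had 49.2, 49.6 and 50.4 CPM, a rise of 0.82 ± 0.06 on the log2 scale (SE, n = 3, adjusted p = 7.72e-11). Female p53 R172H had 34.7, 35 and 34 CPM and rose by 0.30 ± 0.06 (SE, n = 3, adjusted p = 0.000256). Male p53 KO had 33.6, 38.2 and 38 CPM, male p53 Y202C had 47.7, 47.2 and 52.3 CPM, and male p53 Y217C had 44.8, 42.1 and 42.4 CPM. The rises of the male mutants were 0.42 ± 0.06 and 0.23 ± 0.06 (SE, n = 3, adjusted p = 2.41e-06 and 0.00221). Male p53 R172H (34.6, 40.5 and 40.9 CPM) and female p53 Y217C (27.8, 27.7 and 27.1 CPM) overlapped the p53 KO of their culture (adjusted p = 0.358 and 0.705). In order, female and male p53 Y202C (adjusted p = 0.772), male p53 R172H and male p53 KO (adjusted p = 0.358), male p53 KO and female p53 R172H (adjusted p = 0.253) and, in the female culture, p53 KO and p53 Y217C (adjusted p = 0.705) were not separated.

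**Figure D3:**
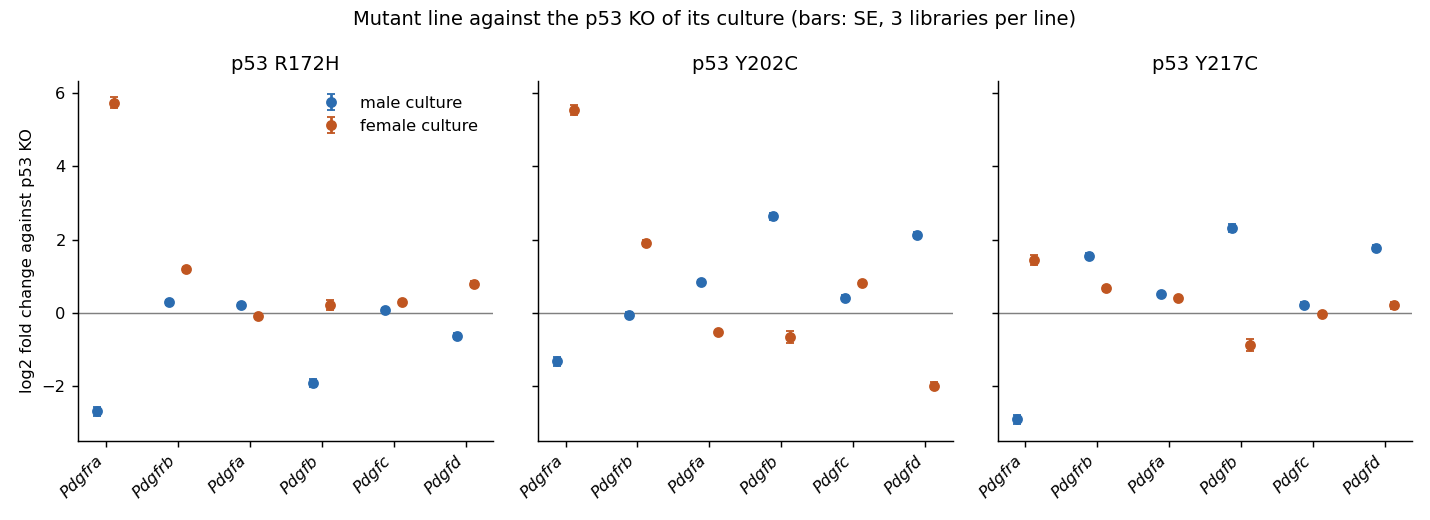
Points are log2 fold changes of the 6 members in each mutant line against the p53 KO of its culture, in 1 panel per mutation, male culture in blue and female culture in orange; bars are the SE. Pdgfra is below 0 in the male culture and above 0 in the female culture in all 3 panels, and for p53 Y202C Pdgfb and Pdgfd are above 0 in the male culture and below 0 in the female culture.

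Ligand RNA was compared per kilobase of exon. The sum of the 4 ligands was 28.8 ± 0.991 CPM per kb (SD, n = 3) in male p53 KO and 28 ± 1.06 in male p53 R172H, but 72.1 ± 0.679 in male p53 Y202C and 58.3 ± 0.214 in male p53 Y217C. The female lines lay between 19.8 ± 0.583 (female p53 Y202C) and 25.9 ± 0.508 (female p53 Y217C). Pdgfa gave the largest share in every line but one, from 35.6% in male p53 Y217C to 68.2% in female p53 Y217C. In female p53 Y202C the largest share was that of Pdgfc, 49.3 ± 1.95% (SD, n = 3), with 46.6 ± 1.71% for Pdgfa and 2.91 ± 0.0439% for Pdgfd. The share of Pdgfb was 10.7 ± 0.718% in male p53 KO but 26.7 ± 2.65% in the male p53 Y202C line, 26.5 ± 0.682% in male p53 Y217C and 2.91 ± 0.0987% in male p53 R172H, and it was at most 1.67% in the female lines. The male p53 Y202C and male p53 Y217C lines thus had similar ligand makeup, with 24 ± 2.2% and 23.3 ± 0.613% from Pdgfd. No test was run on the shares.

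**Figure D4:**
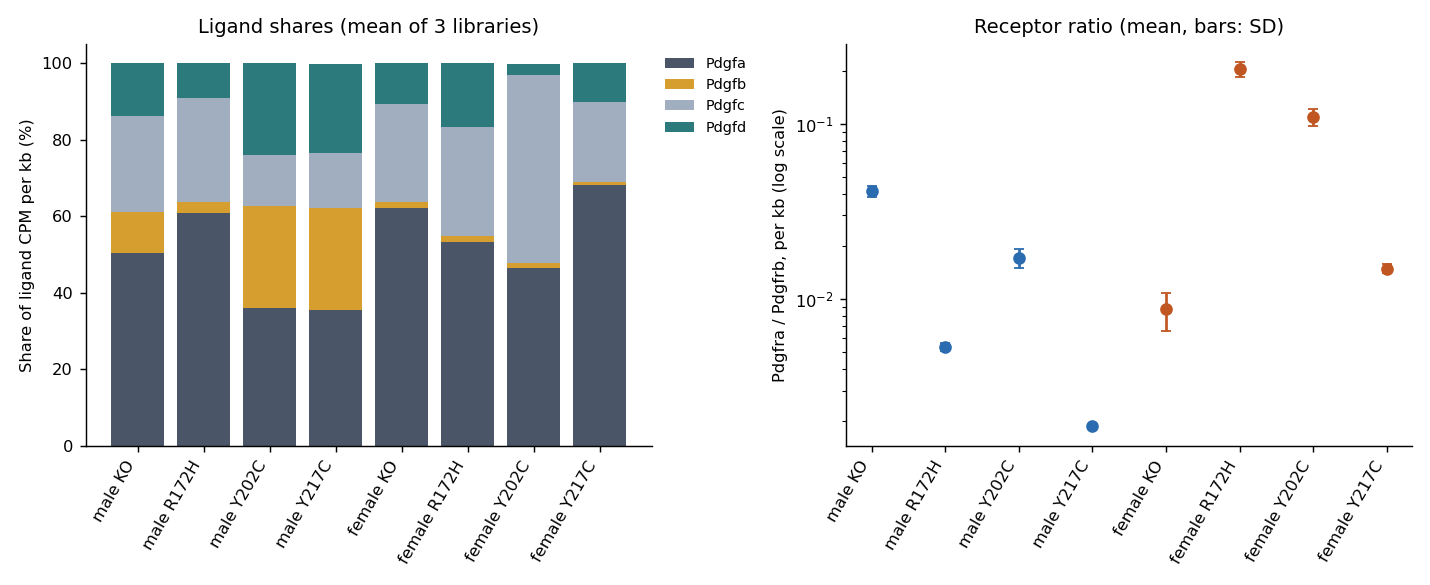
The left panel stacks the mean share of each ligand in the summed ligand CPM per kilobase of exon for the 8 lines, and the right panel gives the ratio of Pdgfra to Pdgfrb per kilobase (log axis, mean of 3 libraries, bars are the SD; male in blue, female in orange). Pdgfb takes 26.7% and 26.5% in male p53 Y202C and male p53 Y217C and at most 1.67% in the female lines, and the ratio runs from 0.00188 in male p53 Y217C to 0.205 in female p53 R172H.

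Counted over the 6 genes, 5 passed the test in male p53 R172H against p53 KO, where 40.7% of all genes passed. Of these 2 were higher and 3 lower, beside 20.2% and 20.5% of all genes. In male p53 Y202C 5 passed (73% of all genes), 4 higher and 1 lower (37.6% and 35.4%), and in male p53 Y217C 6 passed (70.5%), 5 higher and 1 lower (34.9% and 35.6%). In the female culture, 4 passed in p53 R172H (69.7% of all genes), 4 higher and 0 lower (34.4% and 35.3%), 6 in p53 Y202C (68.6%), 3 higher and 3 lower (34.3% and 34.3%), and 5 in p53 Y217C (56.7%), 4 higher and 1 lower (28% and 28.7%). With an absolute log2 fold change above 0.5 required as well, 3, 4 and 5 members passed in the male p53 R172H, Y202C and Y217C lines, where 12.9%, 45.3% and 40.3% of all genes did, and 3, 6 and 3 in the female lines, where 38.8%, 37.7% and 25.3% did. The median absolute log2 fold change of the 6 was 0.46, 1.08 and 1.67 in the male p53 R172H, Y202C and Y217C lines, beside 0.19, 0.46 and 0.40 over all genes, and 0.55, 1.37 and 0.54 in the female lines, beside 0.39, 0.38 and 0.28. The 3 contrasts of a culture share its p53 KO libraries.

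The cultures already differed between their p53 KO lines, which carry no mutant protein. There 5 of the 6 members were higher in the male culture and 0 lower, where 31.1% of all genes differed, 17.2% higher and 13.8% lower, and 3 of 6 passed with an absolute log2 fold change above 0.5 (12% of all genes). The differences were 3.16 ± 0.12 for Pdgfb and 2.71 ± 0.13 for Pdgfra on the log2 scale (SE, n = 3, adjusted p = 1.09e-15 and 4.48e-14). Pdgfd, Pdgfrb and Pdgfc were higher by 0.81, 0.47 and 0.38, while Pdgfa (0.12 ± 0.05, adjusted p = 0.0539) missed the threshold by edgeR and passed it by limma and DESeq2 (adjusted p = 0.00276 and 0.0311). With p53 R172H, 6 differed (62% of all genes), 3 of them by more than 0.5 (30.4%), and the male minus female difference of Pdgfra was -5.71 ± 0.14. With p53 Y202C, 5 differed (75.3% of all genes), of which Pdgfb was higher in the male line by 6.46 ± 0.14 and Pdgfd by 4.90 ± 0.10, while the male minus female differences of Pdgfra and Pdgfrb were -4.15 ± 0.13 and -1.48 ± 0.07. With p53 Y217C, 6 differed (68% of all genes), with Pdgfb 6.37 ± 0.14 and Pdgfd 2.37 ± 0.08 higher in the male line and Pdgfra at -1.64 ± 0.14. The Pdgfc difference with p53 R172H (0.16, adjusted p = 0.0324) did not pass in several alternatives.

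Whether the change with a mutation differed between the 2 cultures was tested as an interaction, the male log2 fold change minus the female one. For p53 R172H all 6 members passed, where 58% of all genes did, and the interaction was -8.41 ± 0.19 for Pdgfra (SE, n = 3, adjusted p = 1.03e-20), -2.13 ± 0.18 for Pdgfb and -1.43 ± 0.12 for Pdgfd. For p53 Y202C all 6 passed, where 68% of all genes did, with -6.86 ± 0.18 for Pdgfra (SE, n = 3, adjusted p = 1.11e-19), 4.10 ± 0.13 for Pdgfd, 3.30 ± 0.19 for Pdgfb, -1.95 ± 0.10 for Pdgfrb and 1.37 ± 0.07 for Pdgfa. For p53 Y217C 5 passed, where 54.8% of all genes did, with -4.35 ± 0.19 for Pdgfra (SE, n = 3, adjusted p = 1.58e-15), 3.20 ± 0.19 for Pdgfb, 1.56 ± 0.12 for Pdgfd and 0.88 ± 0.10 for Pdgfrb, while Pdgfa did not pass (0.11 ± 0.07, adjusted p = 0.155). The interaction of Pdgfra was negative and that of Pdgfc small in all 3 mutations.

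Genes around the receptors were read in 4 lists, 83 genes in all, of which 82 were measured. Between 42 of 82 (male p53 R172H) and 66 of 82 (female p53 Y202C) passed in a mutant line, shares of 51.2% to 80.5% that stood beside 40.7% and 68.6% over all genes. The first list held the proteases that process PDGF chains and the co-receptors that bind them, 13 of 14 measured. In male p53 R172H 2 were higher and 4 lower, in male p53 Y202C 1 and 8, in male p53 Y217C 3 and 7, in female p53 R172H 4 and 8, in female p53 Y202C 5 and 6 and in female p53 Y217C 1 and 11. In the same order, the shares of all genes higher and lower were 20.2% and 20.5%, 37.6% and 35.4%, and 34.9% and 35.6% in the male lines. In the female lines they were 34.4% and 35.3%, 34.3% and 34.3%, and 28% and 28.7%. Pcsk6, which encodes a proprotein convertase, had the largest rise in 5 of the 6 contrasts, from 3.15 ± 0.338 to 25.1 ± 0.873 CPM (SD, n = 3) in male p53 Y217C (log2 fold change 2.99 ± 0.14 SE), and from 2.39 ± 0.584 CPM in female p53 KO to 18 ± 1.99 CPM in p53 R172H (2.93) and 15.2 ± 1.81 CPM in p53 Y202C (2.68). It rose by 1.42 in male p53 R172H and 0.61 in female p53 Y217C. In male p53 Y202C the largest rise was that of Lrp1, an endocytic receptor (0.32 ± 0.09). Thbs1, which encodes the matrix protein thrombospondin, had the largest fall in male p53 Y202C (-2.94 ± 0.08), female p53 R172H (-2.40 ± 0.08) and female p53 Y202C (-2.24 ± 0.08). Plau, which encodes the urokinase protease, fell from 45.3 ± 4.28 to 3.65 ± 0.247 CPM in male p53 Y217C (-3.63 ± 0.09), the line in which Pdgfd rose by 1.77. Plau also passed as lower in every other contrast, from -0.24 in female p53 R172H to -1.18 in male p53 Y202C, where Pdgfd rose by 2.12. Pcsk5, another convertase gene, had the largest fall in female p53 Y217C (-6.55 ± 0.37, from 2.55 to 0.0241 CPM).

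The second list held 30 adaptors, kinases and phosphatases that bind the receptors, all measured. The numbers higher and lower were 5 and 6 in male p53 R172H, 15 and 13 in male p53 Y202C, 9 and 13 in male p53 Y217C, 8 and 14 in female p53 R172H, 11 and 11 in female p53 Y202C and 9 and 12 in female p53 Y217C, with medians between -0.09 and 0.03. Of all genes, 40.7%, 73%, 70.5%, 69.7%, 68.6% and 56.7% passed in these lines in the same order. Cbl, a ubiquitin ligase that acts on activated receptors, had the largest fall in female p53 R172H (-1.10 ± 0.09 SE) and female p53 Y202C (-0.84 ± 0.09), the 2 lines in which Pdgfra rose most, and in male p53 Y202C (-0.66 ± 0.09). Cbl was also lower in male p53 Y217C (-0.53), where Pdgfra fell most, and in female p53 Y217C (-0.27). Fyn, a Src family kinase, rose by 1.21 ± 0.05 in male p53 Y202C, and the docking protein gene Gab1 by 0.39 ± 0.05 in male p53 R172H. Slc9a3r1, a scaffold gene, fell by 0.77 ± 0.08 in male p53 R172H and rose by 1.50 ± 0.07 in male p53 Y217C. Stat5a fell by 1.98 ± 0.09 in male p53 Y217C. In female p53 Y217C the largest rise was that of the phosphatidylinositol kinase gene Pik3cb (0.45 ± 0.07) and the largest fall that of the adaptor gene Nck2 (-0.81 ± 0.06).

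The RAS-ERK and AKT chain, 14 genes all measured, moved little in size. The numbers higher and lower were 4 and 0 in male p53 R172H, 6 and 1 in male p53 Y202C, 2 and 8 in male p53 Y217C, 4 and 7 in female p53 R172H, 6 and 7 in female p53 Y202C and 5 and 3 in female p53 Y217C, beside 40.7%, 73%, 70.5%, 69.7%, 68.6% and 56.7% of all genes passing. Its median absolute log2 fold change was 0.12 to 0.25, below that of all genes in the same contrast in each of the 6 contrasts. The largest rise was that of the kinase gene Mapk3 in male p53 Y202C (0.47 ± 0.04) and male p53 Y217C (0.39 ± 0.04), of Akt2 in female p53 Y202C (0.41 ± 0.05) and of Braf in female p53 Y217C (0.44 ± 0.09). The largest falls were those of Akt1 (-0.42 ± 0.06, male p53 Y202C), Pdpk1 (-0.56 ± 0.06, male p53 Y217C), Map2k1 (-0.73 ± 0.05, female p53 Y202C) and Hras (-0.33 ± 0.10, female p53 Y217C), each in the contrast given.

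The 25 immediate early and feedback genes, which growth factor receptors are known to induce, were all measured. The numbers higher and lower were 8 and 13 in male p53 R172H, 14 and 5 in male p53 Y202C, 8 and 7 in male p53 Y217C, 9 and 9 in female p53 R172H, 7 and 13 in female p53 Y202C and 6 and 17 in female p53 Y217C. Of all genes, 40.7%, 73%, 70.5%, 69.7%, 68.6% and 56.7% passed in these lines in the same order. The median log2 fold change of the list was -0.26, 0.43 and 0.11 in male p53 R172H, Y202C and Y217C. It was 0.01, -0.22 and -0.42 in female p53 R172H, Y202C and Y217C. Pdgfra rose most in female p53 R172H and Y202C, and a link between the members and this list was not tested. Fos had the largest rise in both p53 R172H lines, from 20.3 ± 0.318 to 45.8 ± 7.86 CPM (SD, n = 3) in the male line (1.17 ± 0.14 SE) and from 17.3 ± 0.955 to 65.6 ± 15.4 CPM in the female line (1.92 ± 0.15). Egr2 had it in male p53 Y217C (1.24 ± 0.12) and female p53 Y202C (2.72 ± 0.13), Egr1 in female p53 Y217C (1.22 ± 0.08) and the feedback inhibitor gene Spry4 in male p53 Y202C (1.42 ± 0.08). Dusp4, which encodes an ERK phosphatase, fell most in male p53 R172H (-1.47 ± 0.12) and in female p53 Y217C (-2.56 ± 0.12). The largest falls of the other lines were those of Etv4 (-1.59 ± 0.09, male p53 Y202C), Errfi1 (-2.97 ± 0.07, male p53 Y217C), Fosl1 (-1.49 ± 0.13, female p53 R172H) and Ier2 (-1.31 ± 0.10, female p53 Y202C). For the largest rises and falls named from the 4 lists, adjusted p-values ranged from 1.09e-20 to 0.00519 by edgeR. By the same test, Cbl in female p53 Y217C had an adjusted p of 0.0148 and Plau in female p53 R172H one of 0.00526.

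**Figure D5:**
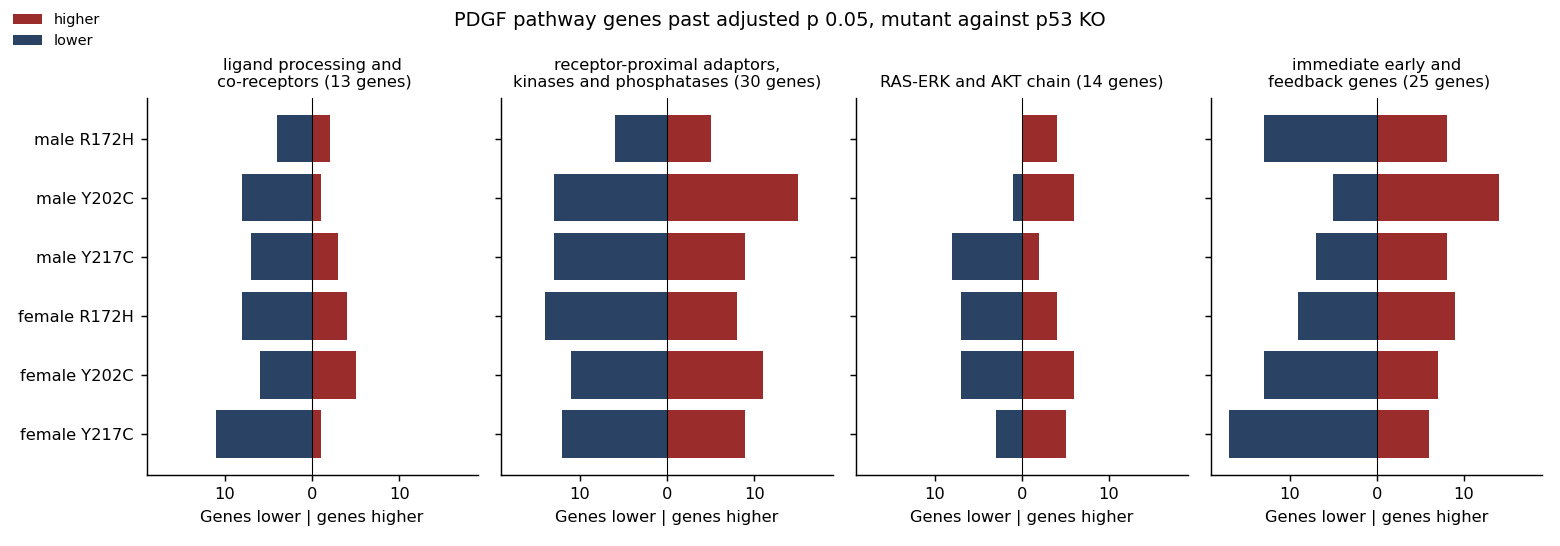
Bars count the genes of each of the 4 lists that passed adjusted p of 0.05 as higher (red, to the right of 0) or lower (blue, to the left) in each mutant line against the p53 KO of its culture. The immediate early and feedback list has 14 higher and 5 lower in male p53 Y202C and 6 higher and 17 lower in female p53 Y217C, where 73% and 56.7% of all genes passed.

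Genes with a start within 1 Mb of a member were read to see whether its neighbours moved with it. Around Pdgfra, 7 genes were measured, and their median log2 fold change was 0.12 and 0.11 in female p53 R172H and female p53 Y202C, where Pdgfra rose by 5.74 and 5.54. Past an absolute log2 fold change of 1, only the endothelial receptor gene Kdr (-1.42 and -2.65 in male p53 Y202C and male p53 Y217C, -1.43 in female p53 Y202C) and Rasl11b (1.60 in female p53 R172H) passed the test there. Kdr, 780 kb away, therefore fell with Pdgfra in male p53 Y202C and male p53 Y217C and against it in female p53 Y202C. In male p53 R172H, where Pdgfra fell by 2.68, 0 of the 7 genes passed that limit, and Kdr had 4.37 CPM against 5.88 CPM in male p53 KO. Around Pdgfd, 6 genes were measured. In male p53 Y202C 5 were higher and 0 lower, with a median of 0.85, and in female p53 Y202C 2 were higher and 1 lower, with a median of 0.31, where Pdgfd fell by 1.98. Of all genes, 37.6% were higher and 35.4% lower in male p53 Y202C, and 34.3% and 34.3% in female p53 Y202C. The caspase gene Casp1 rose by 4.24 and 4.60 in male p53 Y202C and male p53 Y217C, the collagenase gene Mmp13 changed by 1.50 and -2.03 in these lines, Casp4 changed by -1.81 in male p53 Y217C and 1.79 in female p53 Y202C, and Casp12 rose by 1.09 in female p53 Y202C.

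Around Pdgfb, 41 genes were measured, with 26 higher and 6 lower in male p53 Y202C (median 0.32), 15 higher and 17 lower in male p53 Y217C (median -0.10) and 9 higher and 6 lower in male p53 R172H (median -0.01). The shares of all genes higher and lower in these lines were 37.6% and 35.4%, 34.9% and 35.6%, and 20.2% and 20.5%. Cbx7, a Polycomb gene 24.8 kb away, rose with Pdgfb by 2.92 ± 0.17 in male p53 Y202C and 1.85 ± 0.16 in male p53 Y217C (adjusted p = 1.28e-13 and 4.94e-10), and the synaptic vesicle gene Syngr1, 76.4 kb away, rose by 1.47 and 2.47. The calcium channel gene Cacna1i, 272 kb away, fell in all 3 male mutant lines (-1.04, -3.32 and -4.09 on the log2 scale for R172H, Y202C and Y217C). Apobec3 fell by 1.71 in male p53 R172H and rose by 1.65 in male p53 Y217C, the directions of Pdgfb. In male p53 Y202C, 1700088E04Rik, Slc16a8, Kcnj4, Dnal4 and Atf4 also rose, by 1.15 to 2.27, and Kdelr3 fell by 1.43. In male p53 Y217C, 1700088E04Rik and Fam227a rose by 1.27 and 1.04, and H1f0, Baiap2l2 and Kdelr3 fell by 1.03, 1.45 and 1.03.

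Around Pdgfrb, 30 genes were measured. In female p53 R172H 16 were higher and 7 lower (median 0.49) and in female p53 Y202C 21 were higher and 6 lower (median 0.65), whereas in male p53 Y217C 9 were higher and 12 lower (median -0.21). The shares of all genes higher and lower in these lines were 34.4% and 35.3%, 34.3% and 34.3%, and 34.9% and 35.6%. The immunity-related GTPase gene Iigp1 rose from 0.353 CPM in female p53 KO to 98 CPM in female p53 R172H and 8.09 CPM in female p53 Y202C (8.11 and 4.52 on the log2 scale), and its neighbours Gm4951, Gm4841, F830016B08Rik and BC023105 rose by 6.38 to 9.41 in female p53 R172H and by 1.78 to 4.45 in female p53 Y202C. Levels of Gm4951, Gm4841, F830016B08Rik and BC023105 were 0.0193 to 0.149 CPM in female p53 KO and 0.342 to 1.02 CPM in female p53 Y202C. They were 2.72 to 32.2 CPM in female p53 R172H. In female p53 R172H, Cd74, Arsi, Bvht, Carmn and Sh3tc2 also rose, by 3.17, 1.45, 1.28, 1.87 and 2.66. Ablim3 fell there by 1.61, from 0.179 to 0.0609 CPM. In female p53 Y202C, Csf1r, whose start lies 15.5 kb from Pdgfrb, rose from 0.601 to 2.93 CPM (2.29 ± 0.24, adjusted p = 1.08e-08), as did Ablim3 (5.57), Arhgef37 (1.42) and Sh3tc2 (1.03), and Arsi fell by 2.16. In male p53 Y217C, Ppargc1b and Ablim3 rose by 1.11 and 2.64, and Smim3, Arsi, Carmn and Sh3tc2 fell by 1.55, 1.87, 1.50 and 1.68. Gm4841 and F830016B08Rik also passed as lower there, with 0.0678 and 0.0418 CPM in male p53 KO and no read in male p53 Y217C. Around Pdgfa and Pdgfc, 32 and 3 genes were measured, and neither member had an absolute log2 fold change above 1 in a mutant line.

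The genes whose pattern over the 8 line means of log2 CPM was most like that of each member are given as a description, since the lines share 2 cultures. For Pdgfra these were 4930426L09Rik, Zbp1 and Oxsm (Pearson r of 0.961, 0.960 and 0.951 over 8 lines), and for Pdgfrb they were Cdk19, Susd6 and Nav3 (0.978, 0.977 and 0.974). For Pdgfa they were Arhgef10l, Pik3cb and Mrpl3 (0.988, 0.982 and 0.982), of which Pik3cb is also among the receptor-proximal genes above. For Pdgfb they were the ATP-gated channel gene P2rx7, Stac and Adgrl3 (0.979, 0.977 and 0.972), with P2rx7 running from 0.766 to 61.8 CPM. For Pdgfc they were Tymp, Tspan5 and Dhrs11 (0.953, 0.953 and 0.951), and for Pdgfd they were the protease inhibitor gene Cst6, Gm16897 and Pqlc2 (0.988, 0.982 and 0.982). No member was among the 3 most like genes of another member. Between members, r was 0.89 for Pdgfa and Pdgfd, 0.87 for Pdgfb and Pdgfd and 0.75 for Pdgfa and Pdgfb. It was between -0.66 and 0.55 for the other pairs. Some of the genes named had low levels by line: 4930426L09Rik 0.316 to 1.09 CPM, Gm16897 0.189 to 1.25 CPM and Stac 0 to 4.78 CPM.

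Among astrocyte genes, Slc1a3, Aldh1l1, Sox9, Gja1, Glul, Nfia, Vim and Nes reached 10 CPM in at least 1 line, and Slc1a3 was at 106 CPM in male p53 Y217C, a line in which Pdgfra fell. Of 7 endothelial genes 4 were measured; Cdh5 had 33.3 CPM in male p53 KO and at most 4.89 CPM in the other lines, Kdr 0.93 to 11.7 CPM and Flt1 30.4 to 222 CPM. Of 6 neuronal genes 4 were measured, with Tubb3, Stmn2 and Map2 at 15.7 to 98.7, 1.91 to 120 and 3.01 to 116 CPM. The remaining fibroblast genes ran from 3360 to 21800 CPM for Col1a1, 2460 to 15200 for Col1a2, 765 to 6690 for Col3a1, 25.7 to 117 for Twist1, 16.2 to 113 for Tbx18, 88.4 to 344 for Foxc1 and 58.4 to 375 for Fbln1. A measured marker could not be at 3 counts or fewer in every library, since every gene counted exceeded 1 CPM in 3 or more libraries.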

How the data were processed

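RNA was measured in 24 polyA libraries of mouse cortical astrocyte lines (8 lines, 3 libraries each). The authors aligned reads with STAR 2.5.1a to Ensembl release 76 and counted unambiguous, uniquely aligned reads per gene with featureCounts of Subread; the deposited values are raw read counts for 14427 genes, and every gene exceeded 1 CPM in 3 or more libraries. Ensembl identifiers were paired with symbols, GRCm38 positions and exon lengths from GENCODE M21 (14350 matched); promoter windows come from RefSeq. Counts were fitted with edgeR 4.0.16 (R 4.3.3), with scaling by trimmed mean of M values, 1 mean per line over all 24 libraries, a quasi-likelihood F test and Benjamini-Hochberg adjustment over all genes in each of 13 contrasts and of the 28 pairs of lines. The SE was taken from the log2 fold change and its F value. No further filter on low counts was used.

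On simulated counts for male p53 R172H against p53 KO over 14427 genes, 178 of 200 genes changed 2-fold were recovered with 12 false calls. Replicate libraries of a line differed by more than sampling noise (chi-square per degree of freedom of 6.84 to 59.2), and none was counted as a duplicate.

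Named genes were all 6 members, Trp53, the largest called rise and fall of each pathway list per contrast (10 or more counts required in each library of whichever line was higher), marker genes with a mean of at least 10 CPM in a line or 3 or fewer counts throughout, the 3 most like genes per member, and genes within 1 Mb past an absolute log2 fold change of 1 beside a member past it. Genes named outside this rule (Gfap, Aqp4, Csf1r, Des and Rgs5 among the markers) were chosen after their values were seen. Some pathway genes that meet the rule are not reported here. The members and lists were chosen with earlier results of these data known. Alternatives were limma 3.58.1 with voom quality weights (the study's own test), DESeq2 1.42.0, other scalings, filters, thresholds, a replicate block and each library left out in turn.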

Additional observations from a re-analysis of the deposited data

Results flagged for a closer look

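The effect of a mutation differed between the male and the female culture, by the interaction test, for 17 of 18 pairs of a member and a mutation. Over all genes the interaction passed for 58% with p53 R172H, 68% with p53 Y202C and 54.8% with p53 Y217C. Sex and culture cannot be told apart, and the values are male minus female log2 fold changes. For p53 R172H they were -8.41 for Pdgfra, -0.90 for Pdgfrb, 0.30 for Pdgfa, -2.13 for Pdgfb, -0.22 for Pdgfc and -1.43 for Pdgfd. For p53 Y202C they were -6.86 for Pdgfra, -1.95 for Pdgfrb, 1.37 for Pdgfa, 3.30 for Pdgfb, -0.40 for Pdgfc and 4.10 for Pdgfd. For p53 Y217C they were -4.35 for Pdgfra, 0.88 for Pdgfrb, 3.20 for Pdgfb, 0.27 for Pdgfc and 1.56 for Pdgfd. The Pdgfc values for p53 R172H and p53 Y217C did not pass without certain single libraries, with adjusted p of up to 0.155 and 0.0572.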

How the results depend on the processing

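Of 78 pairs of a member and a contrast, 70 passed the threshold. None of the 39 of these with an absolute log2 fold change above 1 lost its call or turned its direction under any alternative run. With the threshold kept at an adjusted p of 0.05 alone, 10 pairs changed a call or sign in some alternative. All 10 had a log2 fold change of 0.22 or less, or of 0.27 for Pdgfc in the interaction of p53 Y217C. The cause was not tested. Requiring also an absolute log2 fold change above 0.5 left 3 members each in male p53 R172H against p53 KO, in female p53 Y217C against p53 KO, in p53 KO between male and female and in p53 R172H between male and female, and 13, 34, 27, 35, 36 and 17 pathway genes in male p53 R172H, Y202C and Y217C and female p53 R172H, Y202C and Y217C. Signs turned for Pdgfc in female p53 Y217C (0.05 by library size only, a scaling that moved the median of all genes by 0.08; 0.01 without female p53 KO replicate 2, with a range of -0.08 to 0.01 over single libraries left out), for Pdgfrb in male p53 Y202C (0.02 without male p53 KO replicate 3, 0.01 without male p53 Y202C replicate 3, range -0.11 to 0.02) and for Pdgfc in p53 Y202C between male and female (0.01 without male p53 Y202C replicate 2, range -0.07 to 0.01), none of which passed in any fit. Without division by exon length the ratio of Pdgfra to Pdgfrb ran from 0.00344 to 0.376.

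Replicate numbers did not pair the libraries: deviations of same-numbered libraries correlated between -0.294 and 0.245, no contrast had every pair above 0.1, and 25 of 60 library comparisons were closest to their own number. With a replicate block the same number of members passed in each of the 13 contrasts (4 to 6 of 6), and 42, 61, 58, 63, 65 and 62 pathway genes passed in the order above.

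Libraries hold 52787288 reads or more, so that depth limits mainly comparisons at low counts, such as the small Pdgfb differences among female lines, where a library has 37 to 207 reads. Pdgfd had 98 to 136 reads in female p53 Y202C and Pdgfra 198 to 222 in male p53 Y217C. Some pathway genes and neighbours were lower still, such as Pcsk5 at 0.0241 CPM in female p53 Y217C. What limits the comparisons is that each line is 1 population from 1 culture.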
